A study of Mus musculus with 45 samples.

Results

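A set of 9 genes whose products carry glutamate across membranes or convert it was followed through 9 conditions of AP firing and excitotoxic intervention in mouse hippocampal primary neurons. They were found by matching the Ensembl identifiers of the count table to gene symbols, and each of the 9 symbols had exactly 1 of the 54532 rows. Slc1a1 (EAAC1), Slc1a2 (GLT-1) and Slc1a3 (GLAST) encode the high-affinity glutamate transporters of the plasma membrane, Slc1a4 (ASCT1) and Slc1a5 (ASCT2) the neutral amino acid exchangers of the same family, Slc17a6 (VGLUT2) and Slc17a7 (VGLUT1) the transporters that fill synaptic vesicles, and Glul and Glud1 the enzymes glutamine synthetase and glutamate dehydrogenase. All 9 had reads in all 45 libraries and entered every test.

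The cultures came from newborn C57BL/6N mice and were treated at day in vitro 11 by the study's methods for sequencing, and at 10 or 11 by the labels. The 9 conditions were an untreated control, bicuculline (Bic, 50 µM), which blocks GABA type A receptors and thereby induces AP firing, for 0.5, 1 or 2 h, and 5 interventions in the continued presence of Bic. The short protocol (SP) began with 0.5 h of Bic and added, for another 0.5 h, either the AP blocker tetrodotoxin (TTX, 1 µM) or TTX together with NMDA (30 µM), written TTX/NMDA. The long protocol (LP) began with 1 h of Bic and added TTX, TTX/NMDA or TBOA (50 µM), an inhibitor of the plasma membrane glutamate transporters, for 1 h more. Each of 5 culture preparations, numbered 1, 3, 6, 7 and 8, gave 1 poly-A RNA library to every condition. The cultures had been grown with serum and with cytosine arabinoside, which limits the division of glia, and nothing was sorted, so that each library mixed neurons with the remaining glia. Levels are given as CPM, a gene's count scaled to a common library size, with the SD over 5 libraries, and differences as log2 fold changes with their standard error (SE) from edgeR's quasi-likelihood test on the 10 libraries of both conditions. A gene was called when its Benjamini-Hochberg adjusted p-value over all genes tested was under 0.05.

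Glutamate released at a synapse is not broken down outside the cell but is taken up again. GLT-1 and GLAST, the transporters most abundant on astrocytes, do most of this work, and EAAC1 is the transporter of neurons. Astrocytes turn the glutamate into glutamine with glutamine synthetase, neurons take the glutamine up and convert it back, and VGLUT1 or VGLUT2 loads it into vesicles, VGLUT1 being the form of most hippocampal pyramidal cells. TBOA blocks the first step of this cycle, so glutamate spills over from the synapse onto extrasynaptic NMDA receptors, while bath-applied NMDA acts on those receptors without the transporters.

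Between 11316580 and 81129276 reads per library were counted on genes. A group of 3 libraries stood apart from the others once the means of conditions and preparations were removed: the residuals of the 9506 genes with a mean of at least 10 CPM had an SD of 0.198 on the log2 scale in the control of preparation 3, 0.149 in SP TTX of preparation 6 and 0.148 in LP TBOA of preparation 6, against 0.115 in the next library and a median of 0.0828. The labelled cell type was present in all libraries, with a summed level of 5 neuronal markers between 4546 and 5856 CPM. Astrocyte markers were present too, at a sum of 377 to 1483 CPM over 10 genes, of which Gjb6 was at 0 in 7 libraries. The sums of the microglial markers, at most 8.76 CPM over 6 genes, and of the endothelial markers, at most 6.77 CPM over 5 genes, were low, with Cldn5 at 0 in 27 libraries.

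The 9 genes covered a wide range of levels. Per kilobase of exon, the control mean was highest for Slc17a7 at 178 CPM per kb, followed by Glul at 78.9, Slc1a4 at 70.8, Slc1a2 at 40.3, Glud1 at 34.5, Slc1a3 at 21.01, Slc1a1 at 19.2, Slc17a6 at 4.62 and Slc1a5 at 1.00 CPM per kb. VGLUT1 was thus the dominant vesicular transporter by RNA level, and Slc1a5 rested on only 35 to 271 counts per library, against at least 1469 for the other members except Slc17a6, which had 241 to 2181. Across conditions, the ratio of the highest to the lowest condition mean was 2.19 for Slc1a3, 1.97 for Slc17a7 and 1.85 for Glul, and 1.16 to 1.49 for the remaining 6. When the 9 conditions were ordered by mean level, the ranges of the 5 libraries overlapped between neighbours in 8 of 8 steps for every gene. The extremes of that order were the same for most of them: LP TTX/NMDA had the lowest mean of Slc1a1, Slc17a6 and Slc17a7 and the highest mean of Slc1a3, Glul and Glud1.

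**Figure D1:**
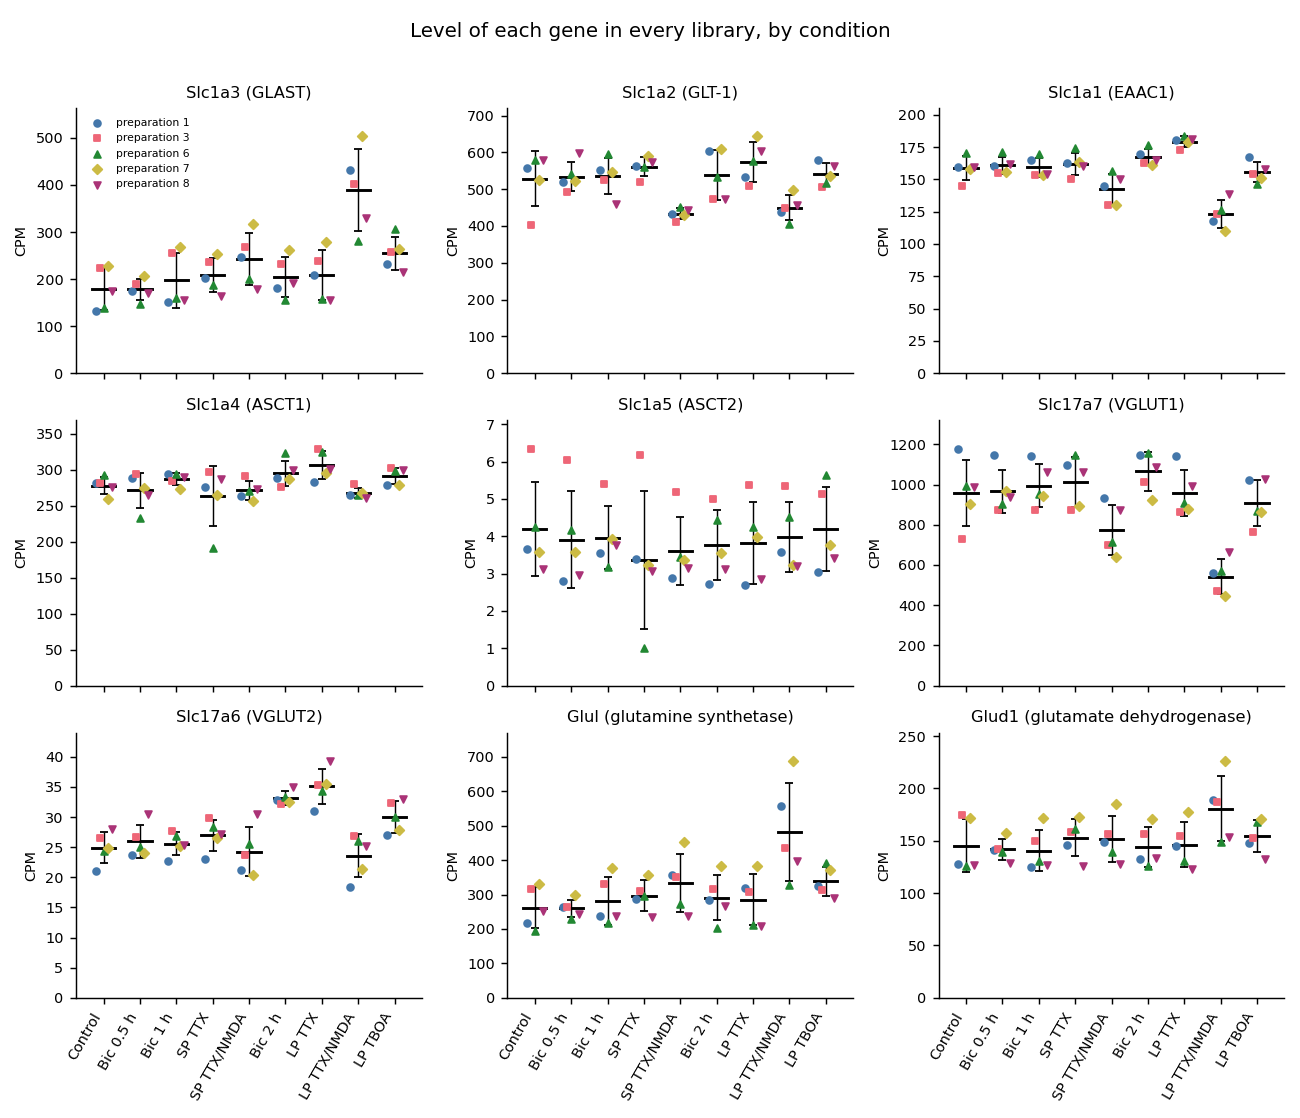
Level of each of the 9 genes in CPM (vertical axes, from 0) in every library, by condition (horizontal axis). Symbols mark the 5 culture preparations, bars the mean and error bars the SD. Slc1a3 and Glul stand highest in LP TTX/NMDA, with means of 389.6 and 481 CPM, and Slc17a7 lowest there, with a mean of 542 CPM, while Slc1a5 stays between means of 3.37 and 4.20 CPM.

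The 9 genes lie at separate places in the genome, given here for GRCm38. Slc1a3 is at chr15:8634124-8710764 on the minus strand, Slc1a2 at chr2:102658659-102790784, Slc1a1 at chr19:28835049-28913960, Slc1a4 at chr11:20302180-20332713 on the minus strand and Slc1a5 at chr7:16781340-16798274. Slc17a6 is at chr7:51622006-51671119, Slc17a7 at chr7:45163949-45176142, Glul at chr1:153899944-153909723 and Glud1 at chr14:34310727-34345265, all 4 on the plus strand like the others without a stated strand. Of the exon bases of Slc1a1, 31.9% also belong to 4430402I18Rik, a gene on the opposite strand. The reads were counted by strand, so its reads should not add to Slc1a1.

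The promoters of 8 of the 9 genes were read from RefSeq (GRCm38.p6), as 250 bases before and 50 after each annotated start. The 4 printed run from 150 bases before to 20 after the start, in the direction of transcription, and are those of Slc1a3, Glul and Slc17a7, the members with the largest ranges between conditions, and that of Slc1a4. Capitals mark the half-site TGACG of the cAMP response element, read on both strands, in the first 3, and the C/EBP-ATF element TGATGNAA, read on both strands, in Slc1a4.
Slc1a3, chr15:8710788-8710957, minus strand: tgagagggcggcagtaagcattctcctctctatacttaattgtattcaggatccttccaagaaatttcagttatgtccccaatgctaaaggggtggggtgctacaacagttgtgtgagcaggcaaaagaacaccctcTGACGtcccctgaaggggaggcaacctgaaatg
Glul, chr1:153899779-153899948, plus strand: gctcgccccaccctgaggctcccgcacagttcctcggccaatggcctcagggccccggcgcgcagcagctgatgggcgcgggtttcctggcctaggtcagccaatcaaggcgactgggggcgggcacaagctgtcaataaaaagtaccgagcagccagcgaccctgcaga
Slc17a7, chr7:45163771-45163940, plus strand: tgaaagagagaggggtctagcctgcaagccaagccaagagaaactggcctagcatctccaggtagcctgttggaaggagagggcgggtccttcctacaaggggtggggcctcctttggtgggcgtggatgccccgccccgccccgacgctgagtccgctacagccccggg
Slc1a4, chr11:20332694-20332863, minus strand: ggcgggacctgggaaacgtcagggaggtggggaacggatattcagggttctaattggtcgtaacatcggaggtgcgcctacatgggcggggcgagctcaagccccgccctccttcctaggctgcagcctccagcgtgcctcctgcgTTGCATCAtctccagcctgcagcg

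Within the 300 bases read for each, the half-site stood once in Slc1a3, with its first base 13 before the start, once in Slc1a4 and once in 1 of the 2 promoters of Slc17a6. It is in 20.8% of all 32851 promoters of that length, so its presence in these is no distinction. The full element TGACGTCA, present in 1.79% of all promoters, and the AP-1 site TGANTCA, present in 7.81%, were found in none of the members' promoters. The C/EBP-ATF element, which responds to amino acid shortage through ATF4 in many genes, was found in Slc1a4 alone among the members, with its first base 4 before the start, and in 3.97% of all promoters. These matches describe letters, not binding.

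The first question was whether AP firing itself moved these genes. Up to 1 h of Bic it did so for none of them at the threshold: edgeR called 0 of the 9 after 0.5 h, where 0.289% of all genes were called, and 0 after 1 h, where 1.16% were called, with 0 members at an unadjusted p under 0.05 both times and 0 called by DESeq2. Their log2 fold changes ran from -0.09 for Slc1a5 to 0.05 for Slc17a6 after 0.5 h and from -0.09 for Slc1a5 to 0.13 for Slc1a3 after 1 h. In the same libraries the activity-induced genes Fos, Arc, Npas4 and Bdnf were all called higher after 1 h. After 2 h of Bic, 1 of the 9 was called higher and 0 lower, against 9.02% of all genes in either direction, 4.24% higher and 4.78% lower. This was Slc17a6, the vesicular transporter VGLUT2. Its level in preparations 1, 3, 6, 7 and 8 was 20.98, 26.5, 24.4, 24.8 and 28.004 CPM in the control and 32.9, 32.2, 33.3, 32.4 and 35.01 CPM after 2 h Bic. The groups did not overlap, and the log2 fold change was 0.40 with an SE of 0.0829 and an adjusted p of 8.7e-04. Without preparation 3, whose control library stood apart, it was 0.43 with an adjusted p of 2.1e-04. The rise came late, since the mean of Slc17a6 was 25.99 CPM after 0.5 h and 25.5 CPM after 1 h.

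Slc17a7, which does the same work in most hippocampal pyramidal cells, went from 958 ± 162 to 1065 ± 97.4 CPM after 2 h of Bic, a log2 fold change of 0.14 with an SE of 0.0947 that was not called. Without preparation 3, whose control was the lowest at 729 CPM, it was 0.08. Slc1a3 was higher in 5 of 5 preparations by 15.7% ± 13.2 but was called only when the preparation was a block in the fit, at a log2 fold change of 0.20 and an adjusted p of 0.033 against 0.51 without it. The sum of the 10 astrocyte markers was also higher in 5 of 5 preparations, by 0.31 ± 0.157 on the log2 scale. The 1 marker called was Sox9, a transcription factor, at a log2 fold change of 2.13 with an adjusted p of 5.3e-13, and the other 9 lay between -0.37 and 0.30. Without Sox9, left out after its value was seen, the sum was higher by 0.18 ± 0.149, in 4 of 5 preparations. Slc1a3 stood at -0.11 ± 0.0949 relative to the sum of 10 and at 0.02 ± 0.104 relative to the sum without Sox9. The part of the markers in the level of Slc1a3 was not tested. The remaining 6 members were not called after 2 h, with log2 fold changes of 0.14 for Glul, 0.07 for Slc1a4 and Slc1a1, 0.02 for Slc1a2, -0.03 for Glud1 and -0.15 for Slc1a5. Of the 32 other genes of glutamate transport and metabolism, 3 were higher and 0 lower: Gclc, the catalytic subunit of the enzyme that joins glutamate to cysteine for glutathione, from 60.8 to 82.3 CPM, Slc38a2, a glutamine carrier, from 178 to 241 CPM, and Rimkla, which makes N-acetylaspartylglutamate, from 34.7 to 41.7 CPM. Their adjusted p-values were 9.3e-05, 6.5e-04 and 0.040. The median of the 32 was 0.09 on the log2 scale, against -0.01 over all genes tested.

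The passive effect, in which TTX is set against Bic alone over an equal time, was small for these genes. edgeR called 0 of the 9 in the SP, where 0.268% of all genes were called (0.252% lower), and 0 in the LP, where 4.65% were called (3.03% higher and 1.62% lower). The members at an unadjusted p under 0.05 numbered 0 and 1, and DESeq2 called 0 in both. The 1 was Slc17a7 in the LP, which differed by -10.03% ± 8.20 within preparations, being lower with TTX in 5 of 5, and was called only with the preparation as a block, at a log2 fold change of -0.17 and an adjusted p of 0.0060 against 0.28. Slc1a1 was higher with TTX in 5 of 5 preparations, by 7.38% ± 2.97, and was not called. Slc17a6 was not called either, with 35.1 ± 2.98 CPM in LP TTX against 33.2 ± 1.11 CPM, a log2 fold change of 0.08 whose interval of 2 SE ran from -0.06 to 0.21. For the other 6 members the LP values ran from -0.03 for Glul to 0.08 for Slc1a2, and in the SP the 9 ran from -0.30 for Slc1a5 to 0.11 for Glud1. Among the other pathway genes, Gclm, the partner subunit of Gclc, was the 1 gene of 32 that was called, higher in LP TTX at 63.8 against 53.7 CPM. Over the same hour 3 of the 4 activity-induced genes were lower with TTX, as Fos fell by 0.71, Arc fell by 1.72 and Npas4 fell by 1.52 on the log2 scale, and Bdnf, at 0.06, was not called.

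In the SP, TTX of preparation 6, a library that stood apart, had the lowest level of both neutral amino acid exchangers. Slc1a4 was at 191 CPM there, against 265 to 296 CPM in the other 4 SP TTX libraries, and Slc1a5 at 0.99 CPM against 3.07 to 6.17 CPM. Asns, Psat1, Slc3a2 and Aldh18a1 also lay below their range in the other 4 libraries. These amino acid genes of the pathway list were picked here after their values were seen. Asns was at 159.8 against 198 to 293 CPM, and Psat1 at 83.7 against 121 to 236 CPM. From the same list Slc38a1, Slc38a2, Gpt2, Bcat1 and Gclm lay below as well. Slc25a22, Slc25a12, Slc25a13, Got1 and Got2 lay above their range, and the rest of the list lay inside. Gfap, the astrocyte intermediate filament, was at 665 CPM there, against 185 to 314 CPM. It was the 1 astrocyte marker of 10 above the range of the other 4 libraries, S100b, at 5.11 CPM, lay below it, and 8 lay inside. Without preparation 6 the passive change of Slc1a4 in the SP moved from -0.13 to -0.01 on the log2 scale, and that of Slc1a5 from -0.30 to -0.10. Neither was called with or without it.

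**Figure D2:**
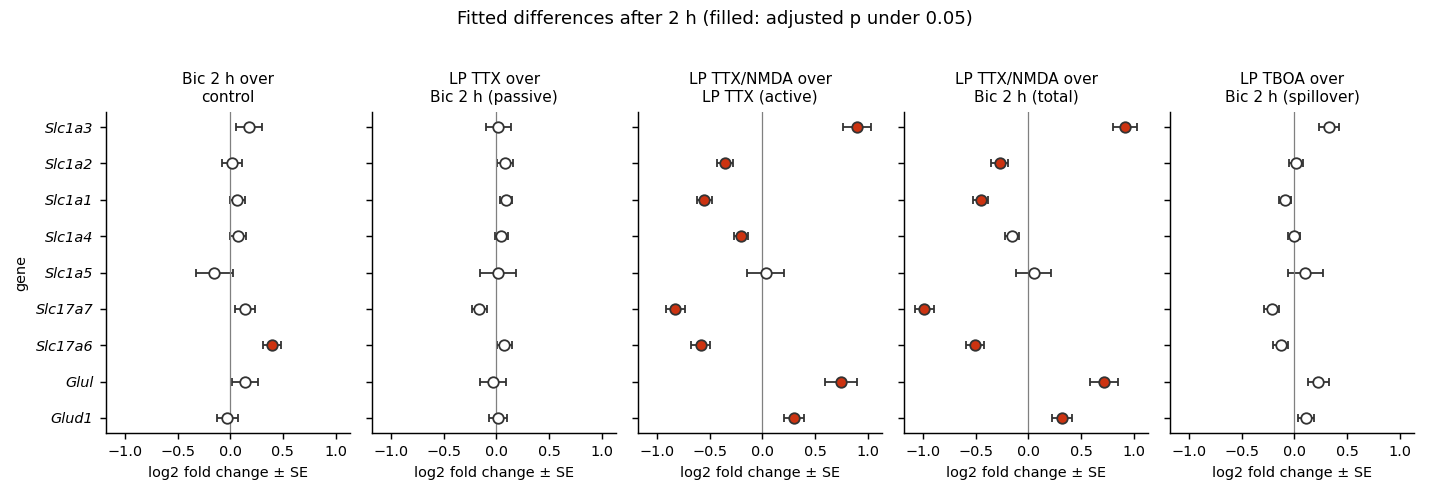
Log2 fold change of each of the 9 genes (horizontal axes, bars show the SE) in 5 comparisons of 2 conditions that end after 2 h. Filled points have an adjusted p under 0.05 and open points do not. The filled points are Slc17a6 in 2 h Bic over control, 8 genes in the active and 7 in the total comparison, where Slc1a3 lies highest and Slc17a7 lowest. The passive and the TBOA comparison have none.

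The active effect asks what NMDA does beyond the silencing of APs, by comparing TTX/NMDA with TTX. In the LP it moved 8 of the 9 genes, 5 down and 3 up, where 23.3% of all genes were called, 11.6% higher and 11.8% lower. Of the 16399 genes that pass edgeR's filter on low counts, filterByExpr, 47.7% were called here. In other comparisons with called members that share was 18.8% for 2 h Bic, 8.97% for the SP active effect, 9.6% for the SP total effect, 46.6% for the LP total effect, 33.5% for TTX/NMDA against TBOA and 7.5% for the interaction. The median of the 9 was -0.20 on the log2 scale, against 0.11 over all 32852 genes tested, 0.05 with that filter and 0.02 in the fit of all 45 libraries. The glial transporter Slc1a3 and the enzymes Glul and Glud1 were higher. The transporters Slc1a1, Slc1a2, Slc1a4, Slc17a6 and Slc17a7 were lower, and Slc1a5 was not called, with a log2 fold change of 0.03 and an SE of 0.176. Libraries of TTX/NMDA and TTX did not overlap for Slc1a1, Slc1a2, Slc1a3, Slc1a4, Slc17a6 and Slc17a7. In bulk RNA, fewer cells of a type and less RNA per cell cannot be told apart.

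Slc17a7 fell most, and the vesicular Slc17a6 and the neuronal Slc1a1 followed at close values, -0.59 (SE 0.0921) and -0.55 (SE 0.0666) on the log2 scale. Slc17a7 was at 1142, 862, 910.0, 878 and 994 CPM with TTX in preparations 1, 3, 6, 7 and 8, and at 561, 469.6, 567, 447 and 665 CPM with TTX/NMDA. Every TTX/NMDA library lay below every TTX library, and the change within a preparation lay between -50.8% and -33.1%. The log2 fold change was -0.83 with an SE of 0.0904 and an adjusted p of 3.1e-08. Slc17a6 was at 30.9, 35.3, 34.4, 35.5 and 39.3 CPM with TTX and at 18.4, 26.9, 26.1, 21.4 and 25.3 CPM with TTX/NMDA. The groups did not overlap, and the log2 fold change was -0.59 with an SE of 0.0921 and an adjusted p of 1.3e-05. With TTX/NMDA, Slc17a6 lay within the range of the 5 control libraries in 4 of 5 preparations.

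Among the plasma membrane transporters, the neuronal Slc1a1 went from 181, 172, 183, 179 and 181 CPM with TTX to 118, 123, 126, 109.8 and 139 CPM with TTX/NMDA. The TTX libraries lay close together, with an SD of 4.1 CPM, and the change was -0.55 on the log2 scale (SE 0.0666, adjusted p 2.0e-07). Slc1a2 was at 532, 509, 577, 643 and 605 CPM with TTX and at 439, 449, 405, 499 and 458 CPM with TTX/NMDA. It was lower in 5 of 5 preparations, with a log2 fold change of -0.36, an SE of 0.0736 and an adjusted p of 4.3e-04. Slc1a2, which encodes the transporter that is most abundant on astrocytes, was thus lower where Slc1a3, the other astrocyte transporter, was higher. Each library mixed neurons with glia, so the cells that held either RNA are not known. Slc1a4 changed least of those called, by -0.20 on the log2 scale with an adjusted p of 0.017, and lost its call without preparation 3 or without preparation 6, with adjusted p-values of up to 0.083.

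Slc1a3 rose most. It was at 208, 239, 157, 279 and 156 CPM with TTX and at 431, 403, 282, 503 and 329 CPM with TTX/NMDA, a gain of 68.7% to 111% within a preparation. The groups did not overlap, and the log2 fold change was 0.90 with an SE of 0.131 and an adjusted p of 4.6e-06. Glul was at 319.6, 306, 210.5, 382 and 209 CPM with TTX and at 556, 436, 327, 688 and 397 CPM with TTX/NMDA. Preparations 6 and 8 started low and preparation 7 high in both conditions, so the groups overlapped although Glul rose in 5 of 5 preparations, with a log2 fold change of 0.74, an SE of 0.149 and an adjusted p of 3.0e-04. Glud1, the mitochondrial enzyme that links glutamate to 2-oxoglutarate, rose from 146 ± 21.5 to 181 ± 31.3 CPM, by 0.30 on the log2 scale with an adjusted p of 0.024, in 5 of 5 preparations. Its call was lost without preparation 1 and in DESeq2, with adjusted p-values of up to 0.075.

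The astrocyte markers moved with Slc1a3 and Glul. In the LP active comparison, 9 of the 10 were called higher and 0 lower, Gjb6 being the exception, and their sum went from 377 to 808 CPM with TTX to 716 to 1483 CPM with TTX/NMDA. Within a preparation the sum gained 0.85 ± 0.17 on the log2 scale, in 5 of 5 preparations, 0.88 ± 0.146 without Gfap, its most abundant gene, and 0.81 ± 0.191 without Sox9. Relative to the sum, Slc1a3 changed by 0.06 ± 0.0819 and Glul by -0.11 ± 0.0747 on the log2 scale. Glud1 changed by -0.55 ± 0.15 and Slc1a2 by -1.20 ± 0.258 relative to it, and Slc17a7 by -1.68 ± 0.233. Of the markers of the oligodendrocyte lineage 4 of 8 were higher, and of those of fibroblasts 5 of 5, at sums of 156 to 312 and 89.2 to 212 CPM with TTX/NMDA against 99.5 to 168 and 68.3 to 147 CPM with TTX. Of the microglial markers 2 of 6 and of the endothelial markers 1 of 5 were higher. Of the neuronal markers 2 of 5 were lower, with a sum of 4706 ± 145 against 5644 ± 155 CPM. Of the excitatory neuron markers, 4 of 5 were lower, and their sum fell from 1974 ± 124 to 1274 ± 151 CPM, while 3 of 5 inhibitory neuron markers were higher. The part of these changes in the members' levels was not tested. CPM are shares of a library's counts.

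**Figure D3:**
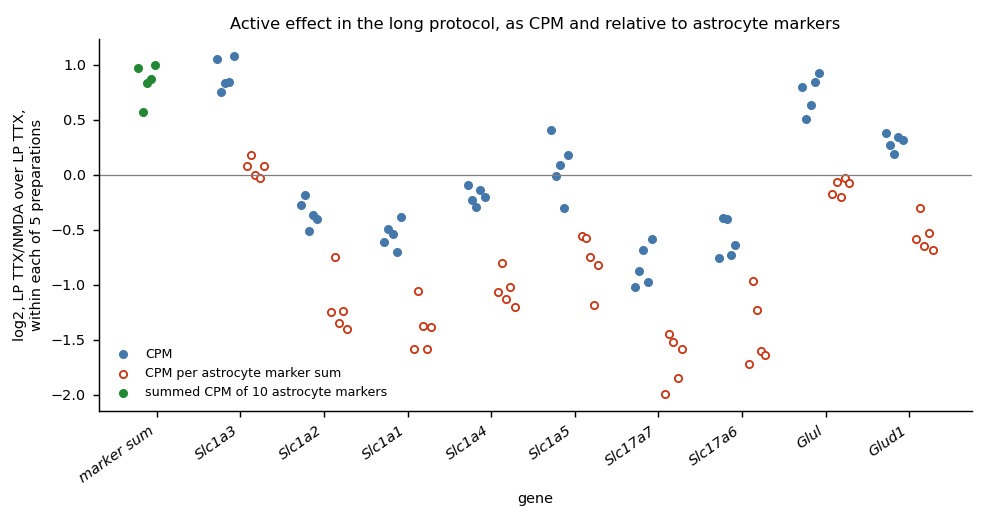
Change from LP TTX to LP TTX/NMDA on the log2 scale within each of 5 preparations (points), for the summed CPM of 10 astrocyte markers, for the CPM of each gene (filled) and for the CPM divided by that sum (open). Slc1a3 and Glul lie near the marker sum as CPM and near 0 relative to it, at means of 0.06 and -0.11, while the means of the other 7 genes relative to it run from -0.55 to -1.68.

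Of the 32 other genes of the pathway, 5 were higher and 6 lower in the LP active comparison and 21 did not pass the test, against 23.3% of all genes called. Their median was -0.07 on the log2 scale. Slc38a2, a carrier of glutamine into neurons, fell from 254 to 180.0 CPM (adjusted p 4.1e-05), Slc25a22, a mitochondrial glutamate carrier, from 330.1 to 259 CPM (adjusted p 1.6e-04), and Gclc from 95.9 to 73.0 CPM (adjusted p 1.7e-04). Against Bic, the total effect called 6 of the 32 higher and 7 lower with a median of -0.12, where Slc25a22 had the smallest adjusted p-value, 3.9e-07. Slc7a11, the cystine-glutamate exchanger, went from 18.4 to 30.2 CPM (adjusted p 5.2e-06), and Slc25a18, a second mitochondrial glutamate carrier, from 21.6 to 37.4 CPM (adjusted p 2.7e-05).

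For the members, the total effect in the LP gave 7 calls, 3 higher and 4 lower, against 22.8% of all genes, 11.7% higher and 11.1% lower. Slc17a7 fell from 1065 ± 97.4 CPM with 2 h Bic to 542 ± 87.2 CPM, by 0.99 on the log2 scale with an SE of 0.0864 and an adjusted p of 5.7e-11. Slc1a3 was higher by 0.92 (SE 0.115, adjusted p 1.1e-07) and Glul by 0.72 (SE 0.133, adjusted p 8.0e-05). Slc17a6 was lower by 0.51, Slc1a1 by 0.45 and Slc1a2 by 0.27, and Glud1 was higher by 0.32, with adjusted p-values from 3.6e-06 to 0.0092. The call of Slc1a2 was lost without preparation 1, where the adjusted p was 0.094. Slc1a4, at a log2 fold change of -0.15 with an adjusted p of 0.092, was called only with the preparation as a block, at 0.046, and in DESeq2, and Slc1a5 stood at 0.05. Of the astrocyte markers 8 of 10 were higher, and their sum gained 0.665 ± 0.287 on the log2 scale. Relative to that sum, Slc1a3 differed by 0.26 ± 0.122, Glul by 0.04 ± 0.102 and Glud1 by -0.343 ± 0.161. Of the excitatory neuron markers 4 of 5 were lower, with a median of -0.455, and of the neuronal markers 2 of 5. Markers of inhibitory neurons (2 of 5), the oligodendrocyte lineage (4 of 8), fibroblasts (4 of 5) and microglia (1 of 6) were higher. The part of these lists in the members' levels was not tested. The total and the active comparison share the TTX/NMDA libraries.

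In the SP the same interventions lasted 0.5 h. The active effect called 2 of the 9, both lower, against 4.28% of all genes, 0.956% higher and 3.32% lower. They were Slc1a2 and Slc17a7. Slc1a2 was at 563, 519.9, 561, 589.6 and 574 CPM with TTX and at 434, 410.0, 450.2, 429 and 444 CPM with TTX/NMDA. The groups did not overlap, and the difference was -0.38 on the log2 scale (SE 0.0651, adjusted p 1.8e-04), with SDs of 25.9 and 15.5 CPM. Slc17a7 was at 1096, 873, 1148, 894 and 1061 CPM with TTX and at 934, 699, 715, 640.5 and 875 CPM with TTX/NMDA, with a log2 fold change of -0.40, an SE of 0.0912 and an adjusted p of 0.0056, in 5 of 5 preparations. Without preparation 6, whose SP TTX library stood apart, these changes were -0.40 and -0.33 and both calls held. With the preparation as a block, 4 of the 9 were called, Slc1a1 (-0.19, adjusted p 0.025) and Slc1a3 (0.21, adjusted p 0.016) in addition, and DESeq2 called Slc1a1 too. The log2 fold changes of the other members were 0.16 for Glul, -0.16 for Slc17a6, 0.14 for Slc1a5, 0.04 for Slc1a4 and -0.02 for Glud1, and without preparation 6 those of Slc1a5 and Slc1a4 became -0.12 and -0.06.

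Against 1 h of Bic, the total effect of the SP also called Slc1a2 and Slc17a7 alone, both lower, against 4.3% of all genes (0.891% higher and 3.41% lower), with log2 fold changes of -0.31 and -0.37. With the preparation as a block, 5 were called: Slc1a1 lower by 0.18, and Slc1a3 and Glul higher by 0.29 and 0.24 on the log2 scale, with adjusted p-values of 0.0076, 0.0038 and 0.011, were added. Without preparation 8, Slc1a3 and Glul were called too, both at 0.022. Glud1 (0.10), Slc17a6 (-0.08), Slc1a4 (-0.09) and Slc1a5 (-0.15) were not called in any setting. In neither SP comparison with TTX/NMDA did a gene of the 32 in the pathway list pass the threshold in edgeR, with 4 and 3 at an unadjusted p under 0.05. The astrocyte marker sum did not move in one direction in the SP active comparison, at -0.09 ± 0.549 on the log2 scale, and at 0.15 ± 0.176 without preparation 6. Of the excitatory neuron markers 4 of 5 were lower there, with a sum of 1508 ± 156 against 2043 ± 163 CPM, and 4 of 5 inhibitory ones were higher. Their part in the levels of Slc1a2 and Slc17a7 was not tested.

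**Figure D4:**
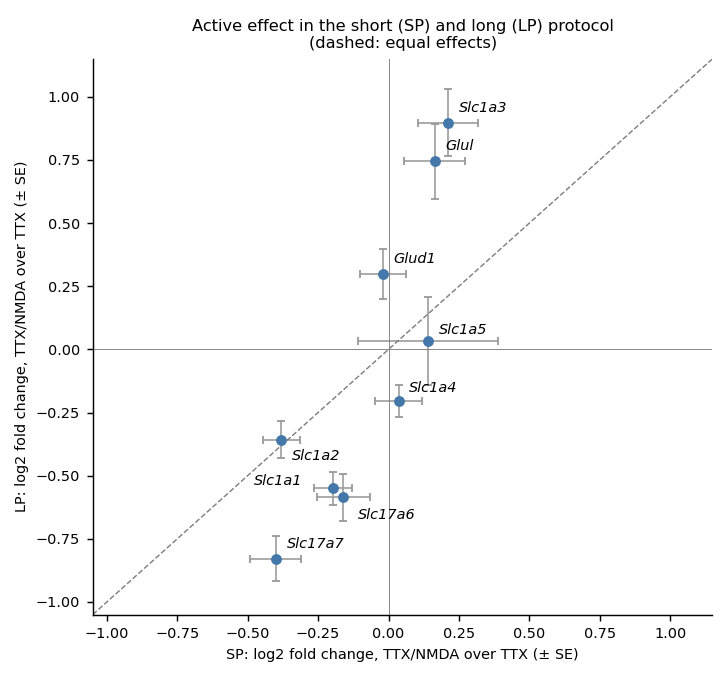
Active effect, the log2 fold change of TTX/NMDA over TTX, in the SP (horizontal axis) and in the LP (vertical axis) for the 9 genes. Bars are the SE, and the dashed line marks equal effects. Slc1a2 lies near that line, at -0.38 and -0.36, and Slc1a3, Glul and Glud1 lie above it.

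The difference between the protocols was tested as an interaction over the 4 conditions. It called 1 of the 9, Slc1a1, where 2.57% of all genes were called, 0.722% with a higher and 1.85% with a lower value in the LP. The fall of Slc1a1 was larger in the LP by 0.34 on the log2 scale (SE 0.0931, adjusted p 0.039), in 5 of 5 preparations, and its call held without preparation 8 but not without preparation 1, 3, 6 or 7, where the adjusted p rose to as much as 0.17. With the preparation as a block, 6 were called: Slc1a1, Slc17a6 and Slc17a7 fell more in the LP, by 0.35, 0.43 and 0.43 on the log2 scale, and Slc1a3, Glul and Glud1 rose more, by 0.72, 0.61 and 0.33, with adjusted p-values from 2.2e-06 to 0.0037. Without the block, Slc1a3 had an adjusted p of 0.052 and was called without preparation 6, 7 or 8, Glul was called without 7 or 8, and Slc17a7 without 8. Of the astrocyte markers, 1 of 10 was called in the interaction, Sox9 at 1.31, but 9 of 10 had an unadjusted p under 0.05, and their median was 0.74 on the log2 scale. Their part in the members' values was not tested. Slc1a4 (-0.22) and Slc1a5 (-0.09) were not called. Slc1a2 had an active effect of -0.37 in the SP and -0.35 in the LP within preparations and a difference of 0.04 on the log2 scale (SE 0.0938). The protocols differ in the duration of Bic and of the intervention together, and these cannot be told apart.

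TBOA acts on the proteins that Slc1a1, Slc1a2 and Slc1a3 encode, and an hour of it moved none of the 9 RNAs past the threshold. Of 31706 genes tested, 0.602% were called, 0.0536% higher and 0.549% lower, and edgeR called 0 of the 9 and 0 of the 32 pathway genes, with 3 and 5 at an unadjusted p under 0.05. DESeq2 called 0 of the 9. Slc1a2 was at 605, 473, 533, 610.0 and 474 CPM with 2 h Bic and at 579, 507, 516, 535 and 563 CPM with TBOA, a log2 fold change of 0.01 whose interval of 2 SE ran from -0.12 to 0.15. For Slc1a1 the difference was -0.09 with an interval from -0.21 to 0.02, and it was lower with TBOA in 5 of 5 preparations. Over the 10 alternative settings, among them each fit without a preparation, its value ran from -0.11 to -0.054 and was called in none. Slc17a7 was also lower in 5 of 5 preparations, at 908 ± 115 against 1065 ± 97.4 CPM, at a log2 fold change of -0.22 (SE 0.0737, adjusted p 0.30). Of the excitatory neuron markers 1 of 5 was called lower and 3 had an unadjusted p under 0.05, with a median of -0.19, and their part in it was not tested. Slc17a6 (-0.13), Glud1 (0.11), Slc1a5 (0.10) and Slc1a4 (-0.0046) differed by less. Over the alternative settings Glud1 ran from 0.0353 to 0.144.

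Slc1a3 showed the largest difference with TBOA. Its level was 181, 233, 155, 263 and 191 CPM with 2 h Bic and 231, 257, 306, 264 and 216 CPM with TBOA. It was higher in 5 of 5 preparations, but by 97.7% in preparation 6 and by 0.370% in preparation 7. The log2 fold change was 0.33 (SE 0.0953, adjusted p 0.15), and without preparation 6, whose TBOA library stood apart, it was 0.17 with an adjusted p of 0.80. The astrocyte marker sum of that library was 946 CPM, against 493.5 CPM in the 2 h Bic library of preparation 6. Glul had the same shape, at 204 CPM with Bic and 393 CPM with TBOA in preparation 6, and its log2 fold change of 0.23 became 0.06 without that preparation. Without preparation 3, 7 or 8, in contrast, Slc1a3 was called, with adjusted p-values of 0.046, 0.0074 and 5.1e-05. Without preparation 8, Glul (0.024) and Slc17a7 (0.016) were called too, in a fit whose prior degrees of freedom were infinite, so that genes of like abundance shared 1 dispersion. Relative to the marker sum, Slc1a3 differed by 0.11 ± 0.0931 on the log2 scale.

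TTX/NMDA was also compared with TBOA directly. Of the 9 genes, 6 were called, 2 higher and 4 lower with TTX/NMDA, against 16.6% of all genes, 8.6% higher and 7.99% lower. Slc17a7 was lower by 0.75 (SE 0.092, adjusted p 1.2e-07), Slc17a6 by 0.36, Slc1a1 by 0.34 and Slc1a2 by 0.27, and Slc1a3 was higher by 0.61 (SE 0.102, adjusted p 2.8e-05) and Glul by 0.51 on the log2 scale. In preparation 6 Slc1a3 and Glul were not higher with TTX/NMDA, at 282 and 327 CPM against 306 and 393 CPM. Slc1a5 stood at -0.04. The call of Slc1a2 was lost without preparation 1, at an adjusted p of 0.056. Slc1a4 and Glud1, with adjusted p-values of 0.20 and 0.080, were called with the preparation as a block, at 0.041 and 0.031, Slc1a4 also in DESeq2 and Glud1 also without preparation 6 or 8. Of the astrocyte markers, 8 of 10 were higher with TTX/NMDA, and their sum differed by 0.44 ± 0.521 on the log2 scale. Without preparation 6, whose TBOA library stood apart, the sum differed by 0.654 ± 0.253. Relative to the sum over all 5 preparations, Slc1a3 differed by 0.15 ± 0.11 and Glul by 0.02 ± 0.0926. Of the excitatory neuron markers 4 of 5 were lower, with a median of -0.42, and 3 of 5 inhibitory neuron, 3 of 5 fibroblast and 3 of 8 oligodendrocyte lineage markers were higher. The part of these lists in the members' levels was not tested. Of the 32 pathway genes, 4 were higher and 3 lower, among them Slc7a11, which was higher, and Slc25a22 and Slc38a2, which were lower (adjusted p 1.5e-03, 1.5e-03 and 2.3e-03).

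Over all 45 libraries, with the means of the preparations removed, the members fell into groups that moved alike. These correlations describe libraries that share conditions, and they carry no test. Slc1a3 and Glul had a Pearson r of 0.98, Glul and Glud1 of 0.93, and Slc1a1 and Slc17a7 of 0.87, while Slc1a3 and Slc17a7 had -0.81. Among 13592 genes, those most like Slc1a3 were Slc4a4, Serpine2 and Glul (r of 0.977 to 0.975), those like Glul included Mlc1 and Zcchc24 (0.978 and 0.976), and those most like Glud1 were Prdx6, Ptn and Fabp7 (0.962 to 0.949). Slc17a7 was followed most closely by Syngr1, Nell2 and Brinp2 (0.985 to 0.98) and Slc1a1 by Psd3, Cpd and Nckap1 (0.973 to 0.97).

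Slc1a2 had no partner as close, its best being Dpp8, Arhgef12 and Dmd at 0.878 to 0.865. Among the members it was at 0.73 with Slc1a1, 0.6 with Slc17a7 and 0.58 with Slc17a6. With Slc1a3, Glul and Glud1 it was at -0.48, -0.49 and -0.46, and with Slc1a4 and Slc1a5 at 0.25 and -0.13. Slc17a6 was most like Heca, Kpna1 and Arih1 (0.937 to 0.929). The neutral amino acid exchanger Slc1a4 was most like Slc7a5, Slc3a2 and Slc7a1 (0.941 to 0.863), which encode both chains of a neutral amino acid exchanger and a carrier of cationic amino acids. Slc1a5 was most like Tm7sf2, Slc7a3 and Fdps (0.81 to 0.776). The r of Slc1a4 and Slc1a5 with each other was 0.64. The SP TTX library of preparation 6, where both were lowest, is among these 45. The C/EBP-ATF element of the Slc1a4 promoter was not found in the 3 promoters held for Slc3a2 and Slc7a1.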

How the data were processed

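Per the labels and the study's methods, the authors sequenced stranded poly-A RNA, aligned the reads to GRCm38 with STAR 2.5.4b and counted them per Ensembl 94 gene with featureCounts 1.6.5, leaving out reads that map to several places or genes. The deposited values are these raw counts for 54532 genes in 45 libraries, 11316580 to 81129276 per library (median 26239614). Groups came from the sample titles, and the replicate numbers 1, 3, 6, 7 and 8 are culture preparations.

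Genes with at least 1 read in the compared libraries were tested with edgeR 4.0.16 in R 4.3.3 (TMM, quasi-likelihood, the 10 libraries of both conditions, Benjamini-Hochberg adjusted p under 0.05). Each comparison was repeated with DESeq2 1.42.0, DESeq2 size factors, filterByExpr, all 45 libraries, the preparation as a block together with filterByExpr, and without each preparation. Same-numbered libraries deviated together (mean r from 0.37 to 0.56 per comparison, over 0.1 in 50 of 55 pairs), so blocked values are given where they change a call. CPM used TMM-scaled library sizes, and levels between genes were divided by exon length. For likeness, log2(CPM + 0.5) was taken over genes with a mean of at least 1 CPM. The fitting was tested on simulated data.

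The members and the gene lists were chosen with earlier results of these data known, and the rule was to name all members in each comparison, up to 4 called genes of the pathway list with the smallest adjusted p, and 3 genes most like each member. Some genes that this rule selects are not reported here. Comparisons share libraries and are not independent of each other. The preparations were shared by all conditions. Without the block, p-values rest on the spread between preparations treated alike. With the block, they rest on the spread left after differences between preparations are removed.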

Additional observations from a re-analysis of the deposited data

Results flagged for a closer look

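The level of Slc1a5 in SP TTX/NMDA was 5.18 CPM in preparation 3, against 2.88 to 3.43 CPM in the other 4 preparations. The gap to the nearest of these, divided by the whole range, was 0.76, above the critical value of 0.71 for 5 samples. It was the 1 of 81 sets of a gene and a condition in which a library stood apart by this measure, and chance alone gives about 1 in 20. Slc1a5 was highest in preparation 3 in 8 of the 9 conditions, LP TBOA being the exception.

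The active effect on Slc1a1 differed between the protocols. TTX/NMDA over TTX gave a log2 fold change of -0.20 after 0.5 h (SP) against -0.55 after 1 h (LP), and the difference, tested as an interaction with edgeR, was -0.34 with an adjusted p of 0.039. It was called in 1 of the 5 fits that leave out a preparation, and was lost without preparation 1, 3, 6 or 7, with adjusted p-values of up to 0.17.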

How the results depend on the processing

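With the preparation as a block together with filterByExpr, the number of the 9 genes called moved from 1 to 2 for 2 h Bic, from 2 to 4 for the SP active effect, from 2 to 5 for the SP total effect, from 0 to 1 for the LP passive effect and from 1 to 6 for the interaction. The blocked fit called 8 in the LP active, the LP total and the TTX/NMDA against TBOA comparison. The cause was not tested. Without 1 preparation at a time, the number called ranged from 2 to 4 for the SP total effect, from 7 to 8 for the LP active effect, from 6 to 7 for the LP total effect, from 0 to 3 for TBOA, from 5 to 7 for TTX/NMDA against TBOA and from 0 to 4 for the interaction. It stayed at 0 for 0.5 and 1 h Bic and both passive effects, at 1 for 2 h Bic and at 2 for the SP active effect. DESeq2 size factors, filterByExpr and the fit of all 45 libraries changed no call of a member. DESeq2 called 3 in the SP active, 7 in the LP active, 8 in the LP total and 7 in the TTX/NMDA against TBOA comparison. Among the fold changes of the members, 1037 values kept their side of the threshold, 33 became called and 10 lost their call. Of the 1037, 41 that were not called differed in sign from the main value, and no called value changed direction. Slc1a5 had 35 to 271 counts per library and a coefficient of variation of 21.5% to 54.8% within a condition.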
